A study of Arabidopsis thaliana with 2 samples.

Results

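The 10 Argonaute genes of Arabidopsis thaliana, AGO1 to AGO10, were examined in a list of nucleosomes mapped by sequencing of DNA protected from micrococcal nuclease (MNase). They were taken by locus identifier, and all 10 were found among 27444 protein-coding genes of the nuclear chromosomes. The series has 2 libraries from seedlings grown for 2 to 3 weeks in long days, 1 from the wild-type strain Col-0 and 1 from the mutant nrpe1. NRPE1 encodes the largest subunit of the plant-specific RNA polymerase V. The deposited list is named for Col-0 or nrpe1 and gives no genotype for any nucleosome, so nrpe1 and Col-0 were not compared. It is taken here as pooled from both libraries. Every value below describes 1 pooled list of 397452 nucleosomes, without replicates and at unknown depth. Seedlings are a mixture of cell types, so a listed position is the position seen over all of their cells.

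Argonaute proteins bind small RNAs and are led by them to matching RNA, which is cut, held back from translation or used as a platform for DNA methylation. Arabidopsis Argonautes fall into 3 branches. AGO1, AGO5 and AGO10 form a branch in which AGO1 and AGO10 work mainly with microRNAs, AGO2, AGO3 and AGO7 form the second branch, and AGO4, AGO6, AGO8 and AGO9 belong to the branch of RNA-directed DNA methylation. AGO4 and AGO6 act with RNA polymerase V, whose largest subunit NRPE1 carries a tail that binds Argonautes. AGO1, AGO2, AGO4, AGO6, AGO7 and AGO10 are known from vegetative tissue, although AGO6, AGO7 and AGO10 are more restricted there than AGO1 and AGO4. AGO5, AGO8 and AGO9 are known mainly from the germline and the cells around it, and AGO3 is little expressed in seedlings.

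The genes were 3893 to 7000 bp long, and 231 listed nucleosomes had their centre inside one of them. A further 35 lay within 1 kb on either side. Across the 10 genes the density ran from 3.08 centres per kb in AGO10 to 6.16 in AGO2, with a median of 4.31 and an SD of 0.938 between genes. The median over all protein-coding genes was 4.03 per kb, with quartiles at 3.05 and 5.07. Of the 10 genes 7 lay above the median gene, where 50.0% of all genes lie by construction, and 7 lay between the quartiles. With only nucleosomes scoring at least the list's median, 6 of the 10 lay above the median gene. Intervals given for densities are exact Poisson intervals at 95%, which cover counting error only. The intervals of all 10 genes held the median of all genes, so no single Argonaute gene stood apart from it by counting error.

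**Figure D1:**
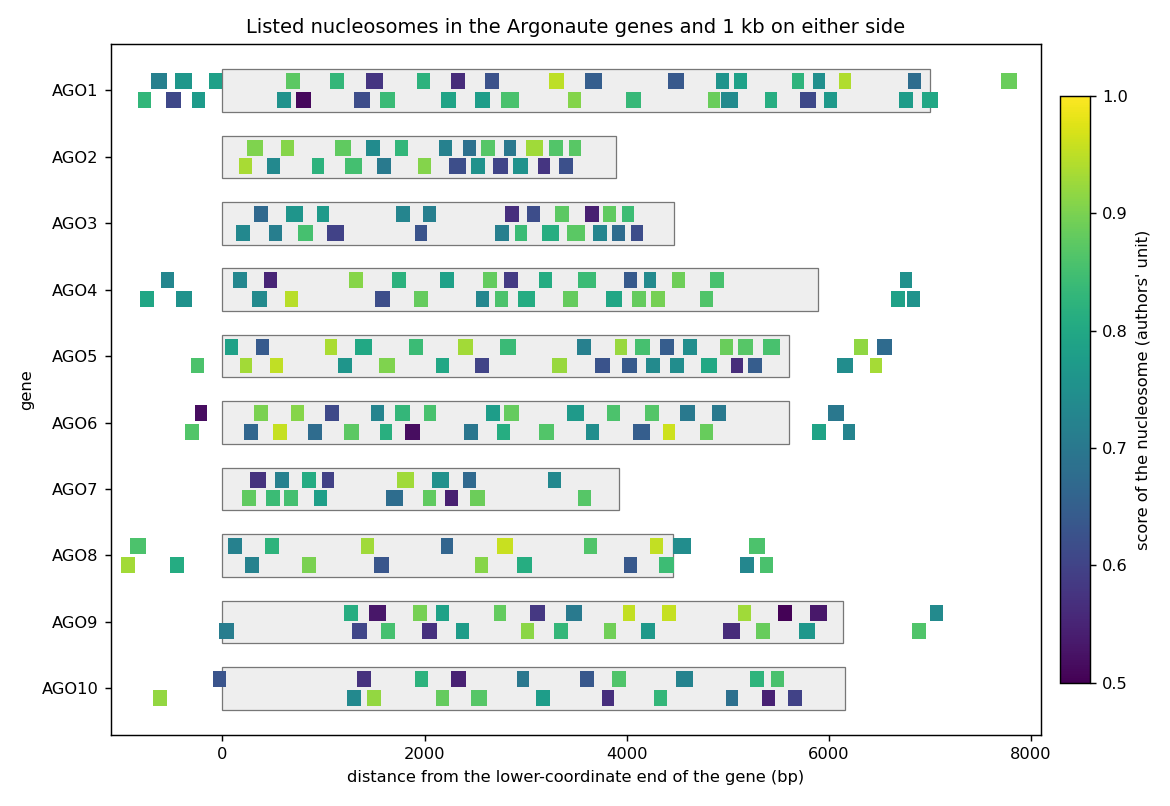
Listed nucleosomes (blocks, coloured by the authors' score and drawn on 2 levels so that overlapping ones can be seen) along each Argonaute gene (grey bar) and 1 kb on either side, against the distance in bp from the lower-coordinate end of the gene. AGO2, AGO3 and AGO7 have none beyond their ends, and AGO9 and AGO10 have a long empty stretch near the lower end.

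In the branch of AGO1, densities differed from gene to gene. AGO1 (AT1G48410, chromosome 1), the main carrier of microRNAs and the longest of the genes, held 30 nucleosomes. Its density was 4.29 per kb (2.89 to 6.12), the 56.9 percentile of all protein-coding genes. Its nucleosomes ran from 17886178 to 17892548, and the first centre lay 609 bp inside the lower-coordinate end. The gene table gives no strand, so ends are named by their coordinates. AGO5 (AT2G27880, chromosome 2), an Argonaute of the germline, held 29 in a shorter gene, between 11871405 and 11876902. Its 5.17 per kb (3.46 to 7.42) stood at the 85.0 percentile of genes within 20% of its length, and its intervals covered 67.8% of the gene. Its outermost centres lay 91 and 172 bp inside its ends, and its longest step between centres was 538 bp. When overlapping nucleosomes were thinned to the higher-scoring ones, AGO5 had the highest density of the 10, at 1.51 times the median gene, against 1.36 times for AGO2.

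AGO10 (AT5G43810, chromosome 5), also called ZWILLE or PINHEAD, keeps the shoot meristem by withdrawing a microRNA from AGO1. It had the lowest density of the 10, with 19 nucleosomes at 3.08 per kb (1.86 to 4.81) covering 40.7% of the gene. That was the 19.7 percentile of genes of like length. A nucleosome at 17610650 to 17610778 sat 30 bp outside the lower-coordinate end, and the next, at 17611973 to 17612115, was centred 1300 bp inside. At the other end the last centre lay 498 bp inside and the next one 2430 bp beyond the gene. The listed part of AGO10 was thus its interior, where the longest step between centres was only 472 bp.

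In the branch of AGO2, 78.3% (AGO3) to 88.2% (AGO7) of the listed nucleosomes in a gene overlapped a neighbour. The share over all protein-coding genes was 62.5%. None was centred within 1 kb around any gene of the branch. Densities differed, from the 63.2 percentile of genes of like length in AGO7 to the 96.8 percentile in AGO2. AGO2 (AT1G31280, chromosome 1), an antiviral Argonaute induced by infection, held 24 at 6.16 per kb (3.95 to 9.17), the highest density of the 10. It stood at the 96.8 percentile of genes of like length, and 72.1% of it was covered. No step between successive centres in AGO2 was longer than 303 bp, which is at the 4.58 percentile for genes of like length, and 10 centres fell within 1 kb. AGO7 (AT1G69440, chromosome 1), which starts the production of trans-acting small RNAs that time leaf development, held 17 at 4.33 per kb (2.53 to 6.94). They lay in a run of 8, a run of 7 and 2 more. The runs were parted by 658 bp, and the second ended 754 bp before the next centre.

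AGO3 (AT1G31290, chromosome 1), the close relative of AGO2, held 23 at 5.15 per kb (3.26 to 7.73), the 84.5 percentile of genes of like length. It had 2 unlisted stretches that AGO2 did not have, with steps of 667 and 722 bp between centres. The longer one, at the 56.7 percentile for genes of like length, lay between the nucleosomes at 11190105 to 11190234 and at 11190822 to 11190960. Beyond it, 9 centres fell within 1 kb. Its density was 1.28 times the median gene, but 0.798 of it when nucleosomes scoring below the list's median were left out.

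In the branch of AGO4, the density was close to the median gene in all but AGO8. AGO4 (AT2G27040, chromosome 2), the main Argonaute of RNA-directed DNA methylation, held 25 at 4.24 per kb (2.75 to 6.27). Its last centre, in the nucleosome at 11541326 to 11541467, lay 995 bp inside the higher-coordinate end, and the next was 1792 bp away. AGO6 (AT2G32940, chromosome 2), which acts beside AGO4 in meristems, held 26 at 4.64 per kb (3.03 to 6.80). Its longest step between centres, 402 bp, was at the 6.06 percentile for genes of like length, and the last 690 bp of the gene held no centre.

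AGO9 (AT5G21150, chromosome 5), which limits the number of germline precursor cells in the ovule, held 24 at 3.91 per kb (2.50 to 5.81). A single nucleosome at 7192201 to 7192356 was centred 39 bp inside the lower-coordinate end. The next, at 7193442 to 7193581, came 1233 bp later, the longest step inside any of the 10 genes. It was at the 85.4 percentile for genes of like length. AGO8 (AT5G21030, chromosome 5) is an ovule gene of low expression that the gene table lists by its locus alone. It held 14 at 3.14 per kb (1.72 to 5.27), and 41.9% of it was covered. Its density was 0.779 of the median gene, and 1.03 times it when overlapping nucleosomes were thinned out. AGO8 and AGO10 were the 2 genes covered for less than 50%, and 8 of 10 were covered for more, against 52.2% of genes in the same range of lengths. AGO7 (50.7%) and AGO9 (50.6%) were only just above that limit, and the median of that range was 50.7%.

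**Figure D2:**
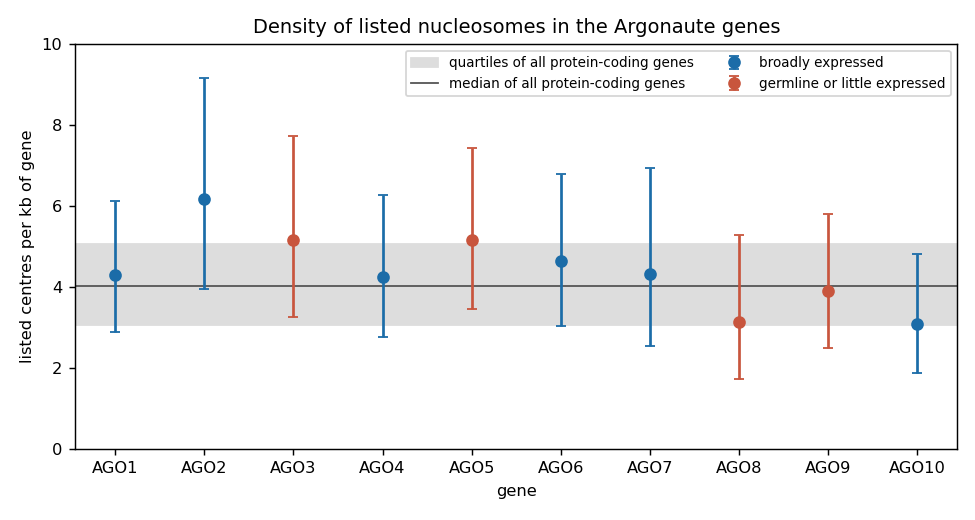
Listed centres per kb of each Argonaute gene (points) with exact 95% Poisson intervals (bars), coloured by known expression, over the median (line) and quartiles (band) of all protein-coding genes. AGO2 is highest at 6.16 and AGO10 lowest at 3.08, and the colours are mixed along the range.

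Genes known from the germline or little expressed did not differ detectably in density from broadly expressed ones. AGO3, AGO5, AGO8 and AGO9 together held 90 centres in 20.7 kb, or 4.35 per kb. The 6 broadly or vegetatively expressed genes held 141 in 32.5 kb, or 4.34 per kb. The ratio was 1.003 (0.761 to 1.32, exact binomial interval of the shared count, counting error only). The single genes overlapped fully, from 3.14 to 5.17 per kb in the first group and from 3.08 to 6.16 in the second. With narrower groups, AGO5, AGO8 and AGO9 against AGO1, AGO2 and AGO4, the ratio was 0.878 (0.624 to 1.23). Differences within these intervals were not detectable at these counts. Genes are not replicates of an expression class, so no p-value was computed.

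The adjacent pair AGO2 and AGO3 was split by a long stretch without a listed nucleosome. The genes are neighbours on chromosome 1 with 2723 bp between them and no other annotated gene. No centre fell in that space. The last nucleosome of AGO2 was at 11184934 to 11185055 and the first of AGO3 at 11188255 to 11188395, which leaves 3199 bp free. A space without a centre was not rare in itself. Among 1441 spaces between neighbouring protein-coding genes within 20% of that length, 16.1% held none, and the median was 2.00 centres. Measured from centre to centre, the 3331 bp were at the 98.4 percentile of all gene ends, which were not matched for the distance to the next gene.

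The outer sides of the pair were empty as well. Below AGO2 the nearest nucleosome, at 11180227 to 11180349, was centred 1216 bp beyond the gene, inside the transcribed pseudogene AT1G31274. Above AGO3 the nearest, at 11194243 to 11194423, was 1748 bp beyond it and inside the next gene, AT1G31300. The pair therefore appeared as 2 blocks of 24 and 23 nucleosomes with empty sequence before, between and after them. The density in AGO3 was 0.835 of that in AGO2 (0.451 to 1.55), within counting error. In the set scoring at least the list's median it was 0.508 (0.170 to 1.40), still within counting error. Their scores, which the authors gave in a unit of their own, lay apart at the median, with 0.789 in AGO2 and 0.727 in AGO3. Of the nucleosomes in AGO2 12 of 24 scored at or above the list's median of 0.790, and in AGO3 7 of 23 did.

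**Figure D3:**
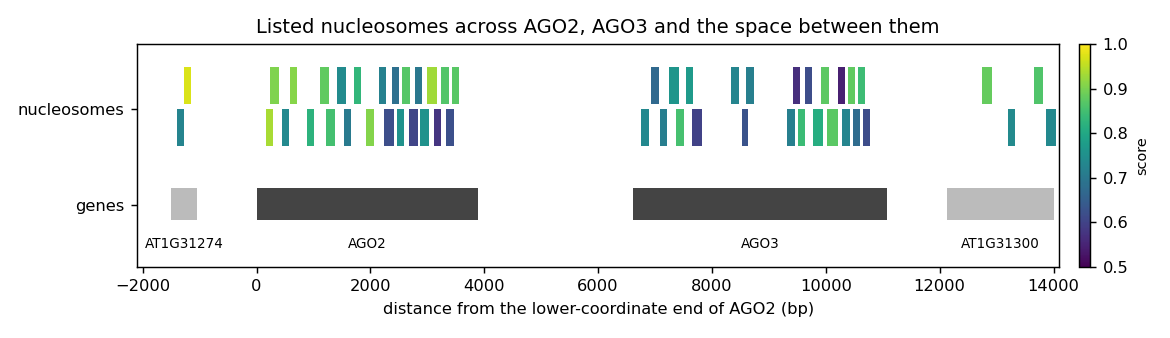
Listed nucleosomes (upper blocks, coloured by score, on 2 levels) and annotated genes (lower bars, AGO2 and AGO3 dark, others grey) against the distance in bp from the lower-coordinate end of AGO2. The 2723 bp between the genes hold no centre, and the nearest centres outside the pair lie 1216 and 1748 bp away.

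AGO7 had empty sides too, and with it all 3 genes of the AGO2 branch had no centre within 1 kb on either side. The nearest centres beyond AGO7 lay 1927 and 1841 bp away. None of the other 7 genes had both sides empty, and AGO9 and AGO10 had 1 empty side each. Over all protein-coding genes 4.73% had both sides empty. The flanks of AGO2, AGO3 and AGO7 hold no other annotated gene, which is true of 4 of the 10, the other being AGO10. Among protein-coding genes with such gene-free flanks 20.9% had both sides empty. The branch was singled out after these values had been seen, and AGO2 and AGO3 share the space between them.

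Of the 35 nucleosomes listed within 1 kb of the other 7 Argonaute genes, 23 were centred inside another gene and 12 outside any gene. The share inside another gene was 65.7%, against 74.7% over the flanks of all protein-coding genes. The most crowded side was the lower-coordinate side of AGO1, with 6 centres, all in AT1G48405, a gene that ends 18 bp away and holds 6.19 per kb. ENODL20 (AT2G27035) lies 16 bp from AGO4 and held 3 at 3.10 per kb. AGO5 is 431 bp from AT2G27900 (2.91 per kb), and AGO6 is 359 bp from COP1 (AT2G32950, 3.67 per kb), a repressor of light signalling. AGO8 lies between AT5G21020 (4.44 per kb) at 155 bp and FBX2 (AT5G21040, 4.90 per kb) at 556 bp. AGO9 is 251 bp from LARP1a (AT5G21160, 3.66 per kb).

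Over the 10 genes the density was 4.35 per kb inside and 1.75 per kb in the flanks, a ratio of 2.48 (1.74 to 3.65). Over all protein-coding genes the ratio was 1.66. Without AGO2, AGO3 and AGO7 the other 7 genes had 4.09 per kb inside and 2.50 in the flanks, and a ratio of 1.63 (1.13 to 2.43). In flank sequence outside any annotated gene, the 10 genes had 0.810 centres per kb and all protein-coding genes 1.11. The value lay below that of all genes through AGO2, AGO3 and AGO7, which had none there, and the other 7 had 1.36 per kb.

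**Figure D4:**
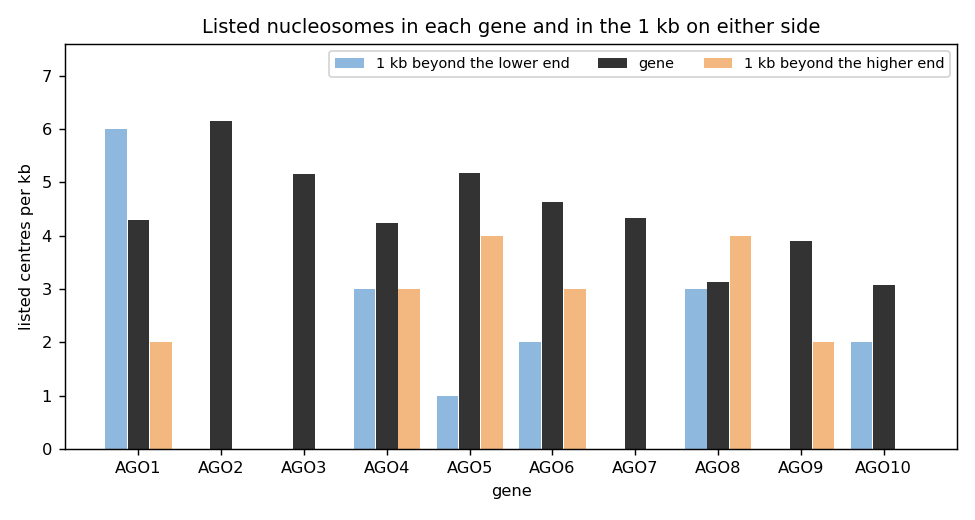
Listed centres per kb in each Argonaute gene (dark bars) and in the 1 kb beyond its lower-coordinate (blue) and higher-coordinate end (orange). AGO2, AGO3 and AGO7 have no flank bars because no centre was listed there, and the lower side of AGO1 reaches 6.

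Starts and ends of genes could not be told apart without strand, and all 20 ends were described alike. In the 250 bp outside, 14 of 20 ends had no centre, near the 67.1% of all protein-coding gene ends. The distance from the last centre inside to the first outside was 1 kb or more at 10 of 20 ends, against 31.3% of all ends. All ends were not matched for the distance to the next gene. These 10 were all 6 ends of AGO2, AGO3 and AGO7, both ends of AGO10, the lower end of AGO9 and the higher end of AGO4. The space between AGO2 and AGO3 counts for 2 of them. All 10 bordered a space of 1039 bp or more without another annotated gene. So did the higher end of AGO1 and the lower ends of AGO5 and AGO6, where the distances were shorter. A part of gene spacing in this count was not tested. The shortest such distances were 151 bp at the higher end of AGO8 and 154 bp at that of AGO1, where nucleosomes were listed straight across the gene end.

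Inside the gene, the outermost centre was 500 bp or more from the end at 4 of 20 ends, and at 14.2% of ends of genes in the same range of lengths. These were the lower ends of AGO1 (609 bp) and AGO10 (1300 bp) and the higher ends of AGO4 (995 bp) and AGO6 (690 bp). The median of the 20 distances was 254 bp, against 223 bp over all protein-coding gene ends, which were not matched for length. Steps of 600 bp or more between centres inside the gene occurred in 6 of 10 genes (AGO1, AGO3, AGO4, AGO7, AGO8 and AGO9), and in 65.2% of genes of that range.

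The share of listed nucleosomes that overlapped a neighbour ran from 14.3% in AGO8 to 88.2% in AGO7. Intervals that overlap widely cannot be filled on the same DNA molecule at once, but overlaps of a few bp were counted too. Whether overlapping neighbours came from different genotypes cannot be told from the pooled list. An overlap marks both of its nucleosomes, so the marks are not independent. The exact binomial intervals of these shares treat them as independent and are likely too narrow. In AGO7 15 of 17 overlapped a neighbour (exact binomial interval 63.6 to 98.5%), at the 95.1 percentile of genes of like length. In AGO2 19 of 24 did (79.2%, 57.8 to 92.9) and in AGO3 18 of 23 (78.3%, 56.3 to 92.5), each at the 84.1 percentile. At the other extreme, 2 of 14 did in AGO8 (1.78 to 42.8%), at the 2.62 percentile. AGO5, with nearly the same density as AGO3, had 11 of 29 overlapping (37.9%, 20.7 to 57.7), at the 12.8 percentile.

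The remaining genes lay between 42.1% in AGO10 and 66.7% in AGO1. Over the list's protein-coding genes the share was 62.5%. As a branch, AGO2, AGO3 and AGO7 had 52 of 64 overlapping (81.2%, 69.5 to 89.9), and the other 7 genes 81 of 167 (48.5%, 40.7 to 56.3). These intervals are likely too narrow as well and pool unlike genes, so the difference was not tested. The pooled density of AGO2, AGO3 and AGO7 was 1.28 times that of the other 7 (0.941 to 1.71), and 1.03 times in a list thinned to non-overlapping nucleosomes. This grouping was made after the shares had been seen.

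**Figure D5:**
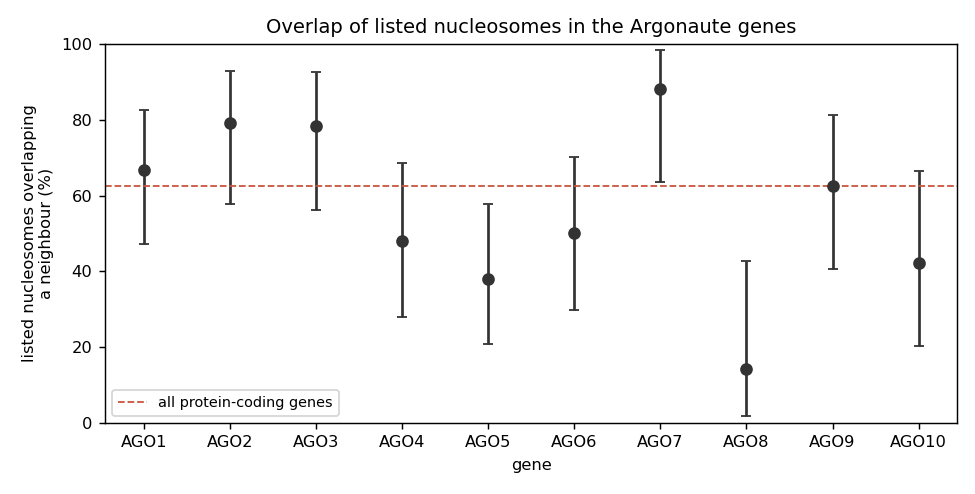
Share of the listed nucleosomes in each Argonaute gene that overlap a listed neighbour (points), in percent, with exact 95% binomial intervals (bars), and the share over all protein-coding genes (dashed line, 62.5%). AGO2, AGO3 and AGO7 are the 3 highest, and AGO8 is lowest at 14.3%. The intervals treat nucleosomes as independent and are likely too narrow.

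The median step between successive centres was shortest in AGO2, AGO3 and AGO7, although AGO3 and AGO7 also had steps of 722 and 754 bp. Overlapping nucleosomes have close centres, so a short median step is not a trait separate from overlap. Over the 10 genes there were 221 steps with a median of 169 bp, and genes in the same range of lengths had a median of 165 bp. Steps under 150 bp made up 43.4% in the Argonaute genes and 44.7% in that range. Steps from 150 to under 220 bp, the range of a nucleosome and its linker, made up 27.6% and 22.6%. The median step was 115 bp in AGO7, 120 bp in AGO2 and 125 bp in AGO3, and it was 206 bp in AGO10 and 258 bp in AGO8. AGO6 had the largest share of steps from 150 to under 220 bp, 12 of 25, and AGO1 had 3 of 29. AGO10 had 5 of 18 steps of 400 bp or more, and AGO2 had none.

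Scores of the Argonaute nucleosomes were those of the list as a whole, with a median of 0.786 against 0.790, and 114 of 231 at or above the list's median. By gene, 4 of 10 had a median score above that of the list, against 50.0% of all protein-coding genes. AGO8, the gene with the least overlap, had the highest median score, 0.833, and AGO4 followed at 0.820. AGO3 had the lowest, 0.727, and AGO10 the next, 0.736. The single highest score was 0.961, of a nucleosome in AGO6 at 13976278 to 13976399 on chromosome 2. AGO8 reached 0.958 at 7142536 to 7142689 on chromosome 5, and AGO9 0.956 at 7196592 to 7196731. In AGO2 the top score of 0.934 belonged to the very first nucleosome, at 11181670 to 11181794, centred 228 bp inside the lower-coordinate end. Listed intervals were of ordinary length, with a median of 137 bp against 138 bp.

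Genes that work with Argonautes in small RNA pathways had a median of 4.47 centres per kb. Of the 18, which make, modify, carry or use small RNAs, 13 lay above the median gene, against 50.0% of all protein-coding genes. In the set scoring at least the list's median, 11 of 18 did, again against 50.0%. The highest were RDR2 (AT4G11130) at 6.69 per kb and RDR6 (AT3G49500) at 5.53, polymerases that make double-stranded RNA in small RNA pathways. The lowest were FBW2 (AT4G08980) with 6 nucleosomes at 2.35 per kb and SQN (AT2G15790) with 8 at 2.56. FBW2 is an F-box protein that leads AGO1 to degradation, and SQN is a cyclophilin that promotes AGO1 activity. AGO2 lay below RDR2, and AGO8 and AGO10 above SQN, so the Argonaute genes fell within the range of their partners.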

How the data were processed

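DNA protected from MNase was sequenced in 2 libraries, 1 per genotype. The submitters' processing notes name Bowtie and TAIR10. Not given in the sources used here are the nucleosome caller, the handling of reads that match several places, the joining of the libraries and whether positions count from 0 or 1. The deposited file, per the file headers, gives chromosome, start, end and a score for each nucleosome. The score is the authors' own, runs from 0.500 to 0.991 and served only to rank and filter. Positions are printed as the authors deposited them. No column holds values of a single library, so depth is unknown.

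Gene ends were read from RefSeq's TAIR10.1 table (37899 nuclear gene models) and matched by locus identifier, with 10 of 10 Argonaute and 18 of 18 pathway genes found. Gene coordinates are not printed, and exons, untranslated regions and sequences were not used here. The alignment of list and table was checked coarsely in genes of 2 kb or longer. The density 250 to 500 bp inside gene ends was set over that in the 250 bp outside. The ratio was 2.71, 2.64 and 2.85 on chromosomes 1, 2 and 5. Such a ratio cannot show a shift of a few bp. Percentiles rank a gene among protein-coding genes, or among those within 20% of its length. Centres are interval midpoints, steps are distances between successive centres in a gene, and nucleosomes overlap where one starts before its neighbour ends. The non-overlapping list kept nucleosomes from the highest score down.

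The text names all 10 members, genes within 1 kb of them, and the 2 highest and 2 lowest pathway genes. AT1G31274 and AT1G31300, which border the pair, were named once their values were known. Members, lists and expression groups were chosen with earlier results of these data known. No test was applied, since there are no replicates. The planned window at gene starts was replaced by windows at both ends. Computation used Python 3.11.15, numpy 2.4.6, pandas 2.3.3 and scipy 1.17.1, and counting was tested on simulated data.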

Additional observations from a re-analysis of the deposited data

How the results depend on the processing

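No paired analysis was possible because the pooled list carries no library or replicate for any nucleosome. Of 78 alternative values 75 stayed within the counting interval of the value reported, or within 1.5 times it for counts. Of the values that answer a comparison 2 moved, both under choices made after seeing the data. The density of gene over flanks fell from 2.48 to 1.63 without AGO2, AGO3 and AGO7. It reached 5.37 (3.01 to 10.5) against flank sequence outside any annotated gene. All protein-coding genes had 4.04 centres per kb inside and 1.11 in such flank sequence. Without AGO2, AGO3 and AGO7 the other 7 genes had 4.09 and 1.36. The ratio of germline or little expressed to broadly expressed genes lay between 0.878 and 1.06 and changed side of 1 in 4 of 5 alternatives, always within counting error.

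Of single genes, AGO3 moved beyond its interval and went to 0.798 of the median gene (1.28 for all) in the set scoring at least the list's median, which left 7 of its nucleosomes. In that higher-scoring set AGO1 also turned, to 0.945. AGO7 turned to 0.988 in the non-overlapping list and to 0.898 with 1 kb on either side. AGO8 turned from 0.779 to between 1.02 and 1.03 in the higher-scoring set, in the non-overlapping list and with 1 kb on either side. AGO10 stayed below 1 (0.661 to 0.914) and AGO2 above 1 (1.27 to 1.57) in all 5 alternatives. AGO3 over AGO2 fell to 0.508 (0.170 to 1.40) in the higher-scoring set. The pooled density of AGO2, AGO3 and AGO7 over the other genes turned to 0.951 with 1 kb on either side.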
